A study of Homo sapiens with 6 samples.

Results

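The genes described are 10 transcription factors of the ETS family, ETV1, ETV4, ETV5, ETV6, ELF1, ELF3, ELF4, EHF, ETS1 and ETS2. They were taken by gene symbol from a deposited expression matrix of 27887 rows, each matching 1 row. The matrix covers KYSE450, an established line of human esophageal squamous cell carcinoma (ESCC), in 2 groups of 3 RNA-seq libraries. The shHMGB2 libraries are labelled as an HMGB2 knockdown and came from cells infected with a virus for a short hairpin RNA against HMGB2, which encodes an abundant DNA-bending protein of chromatin. The mock libraries are labelled wild type and came from cells given a mock virus, so both groups had been through an infection and came from the same line. Whether the mock virus carried a hairpin, the time after infection and whether libraries of a group were separate cultures are unknown from the labels. The p-values therefore rest on differences among libraries that could be technical.

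ETS factors share a winged helix-turn-helix domain, the ETS domain, that reads a short DNA core, GGAA. ETV1, ETV4 and ETV5 form the PEA3 subfamily of activators, whose transcripts are known to follow receptor tyrosine kinase and ERK signalling and to be held down by the repressor CIC. ETS1 and ETS2 are activators that ERK can phosphorylate beside their pointed domain, ETV6 is a repressor that self-associates through such a domain, and ELF3 and EHF are epithelial members expressed in squamous and glandular linings.

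The promoters of 3 members are printed because they show how the core that ETS proteins read, and the octamer that CIC reads, lie beside genes of the family itself. Each run is the 250 bases before the most upstream start site that RefSeq gives for the gene (GRCh38.p14), 5′ to 3′ on the gene's own strand. Capitals mark each GGAA core on either strand (GGAA or TTCC) and, in ETV1, a match to the CIC octamer. They come from chr7:13991426-13991675 on the minus strand for ETV1, chr12:11649424-11649673 on the plus strand for ETV6 and chr21:38804933-38805182 on the plus strand for ETS2.
ETV1: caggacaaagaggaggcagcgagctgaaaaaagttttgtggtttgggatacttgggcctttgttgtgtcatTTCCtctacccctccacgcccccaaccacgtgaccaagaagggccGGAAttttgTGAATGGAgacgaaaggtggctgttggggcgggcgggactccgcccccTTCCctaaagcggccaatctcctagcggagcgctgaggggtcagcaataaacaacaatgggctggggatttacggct
ETV6: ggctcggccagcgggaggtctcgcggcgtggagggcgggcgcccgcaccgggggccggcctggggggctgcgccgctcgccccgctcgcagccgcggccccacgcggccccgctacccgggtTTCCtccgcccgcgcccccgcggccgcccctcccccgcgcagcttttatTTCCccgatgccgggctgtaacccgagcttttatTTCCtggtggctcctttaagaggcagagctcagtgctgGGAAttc
ETS2: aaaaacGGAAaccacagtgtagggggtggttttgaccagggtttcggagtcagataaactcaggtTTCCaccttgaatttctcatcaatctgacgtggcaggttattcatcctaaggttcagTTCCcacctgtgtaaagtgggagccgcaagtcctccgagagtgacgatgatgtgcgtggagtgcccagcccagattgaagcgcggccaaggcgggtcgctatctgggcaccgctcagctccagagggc

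The RefSeq table matched 7 of the 10 members, ETV1, ETV6, ELF1, ELF3, ELF4, EHF and ETS2. The others, ETV4, ETV5 and ETS1, had no window and were not searched. All 7 windows held a GGAA core on at least 1 strand, as did 92.8% of 27305 promoter windows of the same length, in which the median was 3 cores. ETV1 had 3 cores, ETV6 had 4 and ETS2 had 3. The CIC octamer was searched on both strands as TGAATGAA, TGAATGGA, TCAATGAA and TCAATGGA, which occur in 3.33% of all windows. Among the 7 members searched it was found in ETV1, as TGAATGGA starting 125 bases before the start site and separate from the GGAA cores. The longer ETS sites CCGGAAG and CAGGAAG, which contain the core, and the AP-1 site in its forms TGACTCA and TGAGTCA were in 0 of the 7 windows and in 8.78%, 10.4% and 4.15% of all windows. These are matches of letters and were not measured as binding.

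Levels are in FPKM, fragments scaled to transcript length and to library size, so genes can be set beside each other per length. HMGB2 averaged 24.8 ± 2.84 FPKM in shHMGB2 libraries and 112 ± 3.60 FPKM in mock libraries (SD, n = 3 each), which is 22.1% of the mock mean (log2 fold change -2.14, SE 0.084, limma adjusted p = 0.000113). The lowest summed FPKM was 740684 (shHMGB2 replicate 2) and the highest 829437 (mock replicate 1). Estimated depth was 1.88, 1.63 and 1 in shHMGB2 replicates 1, 2 and 3 and 1.29, 1.23 and 1.7 in mock replicates 1, 2 and 3, relative to shHMGB2 replicate 3. All 8 squamous epithelial markers had a mean of at least 1 FPKM, with summed levels of 5810 to 6498 FPKM in shHMGB2 libraries and 6668 to 6829 FPKM in mock libraries. KRT6A, KRT14 and SFN were called lower in limma, and KRT6A, at 1418 ± 63.8 FPKM in shHMGB2 and 2068 ± 89.6 FPKM in mock (SD, n = 3 each), makes up most of the difference in the sum. The other 5 did not pass, TP63 with a lower mean in shHMGB2 and KRT5, DSG3, EPCAM and CDH1 with higher means. Of markers of other cells, 1 of 6 for fibroblasts (LUM), 1 of 6 for endothelium (ERG, itself an ETS gene) and 0 of 5 for leukocytes reached that mean. Their summed levels were 3.96 to 4.38, 2.39 to 2.81 and 0.17 to 0.24 FPKM in shHMGB2 libraries, against 2.91 to 3.69, 1.88 to 2.58 and 0.07 to 0.14 FPKM in mock libraries. No marker was at 0 in all 6 libraries. Whether the lower KRT6A, KRT14 and SFN have a part in the values that follow was not tested.

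In the shHMGB2 libraries, 2 of the 3 PEA3 genes, ETV4 and ETV5, averaged 57.8% and 50.7% of their mock level. ETV5 passed narrowly and kept its call in 1 of the 6 fits that left out 1 library. No member was called higher. A row was tested where its mean over the 6 libraries was at least 1 FPKM, and called where limma's Benjamini-Hochberg adjusted p over all 13409 tested rows was under 0.05. Of the 9 members tested, ETV4 and ETV5 were lower, 0 were higher and 7 did not pass. At an unadjusted p under 0.05 in limma, 3 were lower and 1, ETV6, was higher, where 3745 of all 13409 tested rows passed in either direction. By adjusted p, 3.45% of all tested rows were lower and 3.3% were higher, 6.75% in either direction. These calls were 442 higher and 463 lower. With median-of-ratios scaling 349 rows were higher, 571 were lower, and 3 of the lower rows were members. The median log2 fold change was -0.12 over the 9 members and 0.04 over all tested rows. In bulk RNA, fewer cells of a kind and less RNA per cell cannot be told apart.

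**Figure D1:**
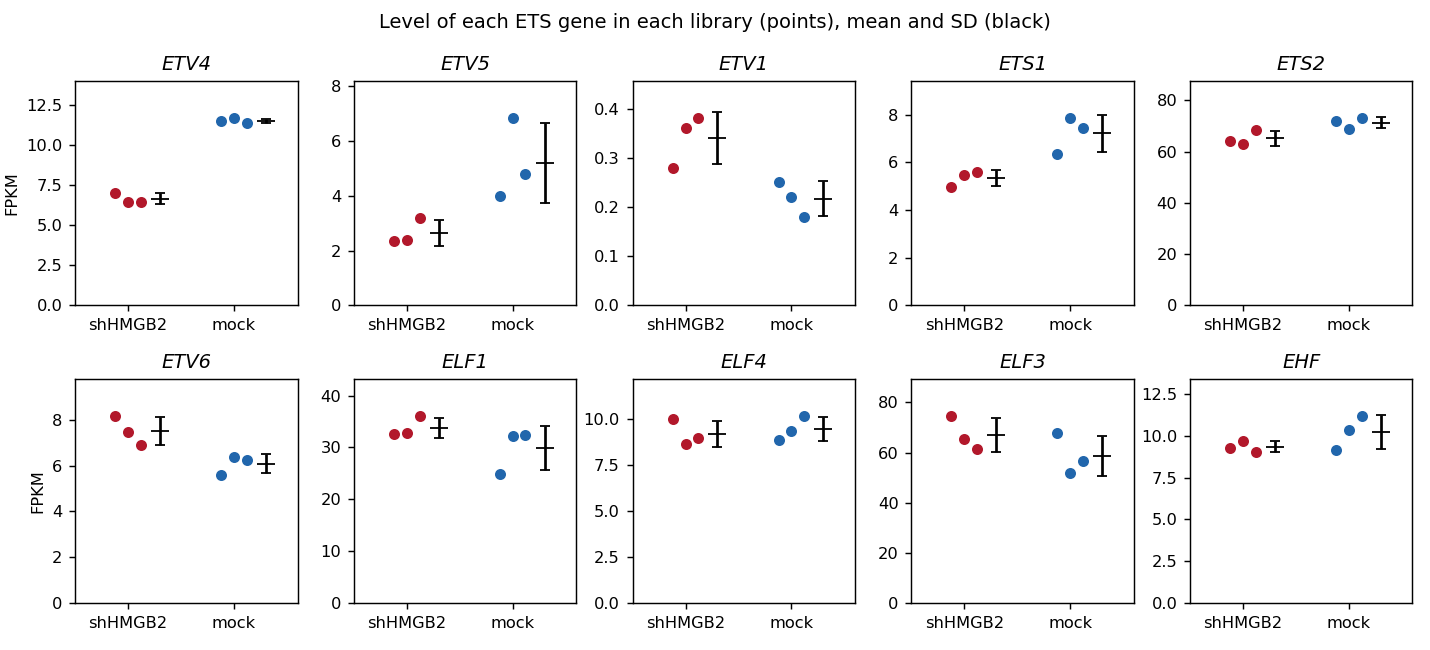
Level of each of the 10 ETS genes in FPKM (vertical axes start at 0) in each of the 3 shHMGB2 and 3 mock libraries, with points for libraries and black marks for the mean and SD. ETV4, ETV5, ETS1 and ETS2 had all shHMGB2 libraries below all mock libraries, and ETV1, ETV6 and ELF1 had them above.

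ETV4 encodes a PEA3 activator known for growth and invasion programmes in epithelial tumours and lies on chromosome 17 from 43527846 to 43546340. It stood at 7.02, 6.45 and 6.44 FPKM in the shHMGB2 libraries, against 11.46, 11.64 and 11.34 FPKM in the mock libraries. The groups were far apart compared with the spread inside them, which was narrowest in mock. The means were 6.64 ± 0.332 FPKM in shHMGB2 and 11.5 ± 0.151 FPKM in mock (SD, n = 3 each), a 1.73-fold lower level. On the log2(FPKM + 1) scale, which understates changes of low genes, ETV4 fell by 0.71 (SE 0.063, limma adjusted p = 0.00154). Of the 463 rows called lower, 92, ETV4 among them, fell by at least as much. The call held in all 20 alternatives, with log2 fold changes between -0.79 and -0.69, and in each of the 6 fits that left out 1 library (adjusted p between 0.00466 and 0.0124 in limma). ETV4 shares 68 exonic bases with DHX8 on the opposite strand, whose means were 19.9 FPKM in shHMGB2 and 17.5 FPKM in mock. No source used here states the strand setting of the authors' counting.

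ETV5 encodes another PEA3 activator, known in branching epithelia and in the upkeep of germline stem cells, and lies on chromosome 3 from 186046314 to 186109089. Its levels were 2.35, 2.37 and 3.19 FPKM in the shHMGB2 libraries, against 3.98, 6.83 and 4.78 FPKM in the mock libraries. All shHMGB2 values lay below all mock values, though the mock libraries differed widely, with mock replicate 2 the highest. ETV5 averaged 2.64 ± 0.479 FPKM in shHMGB2 and 5.20 ± 1.47 FPKM in mock (SD, n = 3 each), a 1.97-fold lower level. It fell by 0.75 on the log2 scale (SE 0.17) and passed narrowly (limma adjusted p = 0.0476). The call was lost without shHMGB2 replicate 1, 2 or 3 (adjusted p = 0.145, 0.146 and 0.0756 in limma), without mock replicate 2 or 3 (0.0993 and 0.0672), with no filter on low values (0.139) and with a filter at 0.5 FPKM (0.0548). It was also lost without limma's mean-variance trend (adjusted p = 0.0523). ETV5 shares 164 exonic bases with DGKG on the same strand, whose means were 0.007 FPKM in shHMGB2 and 0.01 FPKM in mock.

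ETV1, the remaining PEA3 gene, lies on chromosome 7 from 13891229 to 13991425 and was nearly silent in these cells. It was listed at 0.28, 0.36 and 0.38 FPKM in the shHMGB2 libraries and at 0.25, 0.22 and 0.18 FPKM in the mock libraries. Its shHMGB2 values all lay above its mock values, the opposite side from ETV4 and ETV5, at means of 0.34 ± 0.053 FPKM in shHMGB2 and 0.217 ± 0.035 FPKM in mock (SD, n = 3 each). ETV1 was below the filter and not tested, and with no filter it differed by 0.14 on the log2 scale (SE 0.042, adjusted p = 0.183 in limma). Its promoter was the only PEA3 promoter searched for the octamer, as ETV4 and ETV5 had no window, so the match cannot be set against level. Summed over the 3 PEA3 genes, the level was 9.65, 9.18 and 10.01 FPKM in the shHMGB2 libraries, against 15.69, 18.69 and 16.3 FPKM in the mock libraries, almost all of it ETV4 and ETV5.

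ETS1, an activator known in endothelial and lymphoid cells and in invasive carcinoma, lies on chromosome 11 from 128458765 to 128587558. It had 4.97, 5.45 and 5.59 FPKM in the shHMGB2 libraries, against 6.34, 7.84 and 7.44 FPKM in the mock libraries. The groups did not overlap, and the means of 5.34 ± 0.325 FPKM in shHMGB2 and 7.21 ± 0.777 FPKM in mock (SD, n = 3 each) put shHMGB2 at 74.1% of mock. The log2 fold change was -0.37 (SE 0.090), and ETS1 narrowly missed the threshold (limma adjusted p = 0.0548). It passed in limma with a filter at 5 FPKM (adjusted p = 0.0494), with median-of-ratios scaling (0.038), with quantile normalization (0.0257), with library weights (0.00236), with numbered copies of genes summed (0.0426) and without mock replicate 1 (0.0246). Over the 6 fits that left out 1 library its adjusted p in limma ran from 0.0246 to 0.157.

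ETS2, the close paralogue of ETS1 and known as a target of RAS signalling in epithelia, lies on chromosome 21 from 38805183 to 38824955. It was among the most abundant members, with 64.22, 62.86 and 68.44 FPKM in the shHMGB2 libraries, against 71.93, 68.92 and 72.96 FPKM in the mock libraries. The groups were separated by less than 1 FPKM between the highest shHMGB2 and the lowest mock library. ETS2 averaged 65.2 ± 2.91 FPKM in shHMGB2 and 71.3 ± 2.10 FPKM in mock (SD, n = 3 each), a log2 fold change of -0.13 (SE 0.057) that did not pass (limma adjusted p = 0.192). Within each library ETS2 exceeded ETS1 12.9, 11.5 and 12.2-fold in shHMGB2, against 11.3, 8.79 and 9.81-fold in mock. All shHMGB2 ratios of ETS2 over ETS1 were above all mock ratios, which was not tested.

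ETV6, a repressor best known from leukaemia translocations, lies on chromosome 12 from 11649674 to 11895377. It showed the opposite tendency to ETV4, with 8.17, 7.47 and 6.91 FPKM in the shHMGB2 libraries, against 5.61, 6.38 and 6.25 FPKM in the mock libraries. The groups did not overlap, at means of 7.52 ± 0.631 FPKM in shHMGB2 and 6.08 ± 0.412 FPKM in mock (SD, n = 3 each). The log2 fold change of 0.27 (SE 0.083) missed the threshold (limma adjusted p = 0.0962), and passed with library weights (adjusted p = 0.0364 in limma). Set against each other inside each library, ETV4 over ETV6 was 0.859, 0.863 and 0.932 in shHMGB2, against 2.04, 1.82 and 1.81 in mock. ETV4 RNA was thus below ETV6 RNA in every shHMGB2 library and above it in every mock library. The mean ratios were 0.885 ± 0.041 in shHMGB2 and 1.89 ± 0.129 in mock (SD, n = 3 each). The ratios had to separate, as neither gene's groups overlapped and they differed in opposite directions. The ratio was not tested.

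ELF1 and ELF4 are related activators known mostly from blood cells and from antiviral gene control. ELF1, on chromosome 13 from 40931919 to 41061386, had 32.54, 32.76 and 36.04 FPKM in the shHMGB2 libraries, against 24.93, 32.27 and 32.37 FPKM in the mock libraries. The groups just failed to overlap, with the highest mock library close under the lowest shHMGB2 library, and mock replicate 1 lay well below the other mock libraries. On the log2 scale the difference was 0.18 (SE 0.11, adjusted p = 0.304 in limma), at means of 33.8 ± 1.96 FPKM in shHMGB2 and 29.9 ± 4.27 FPKM in mock (SD, n = 3 each). ELF1 shares 167 exonic bases with WBP4 on the opposite strand, at 8.41 FPKM in shHMGB2 and 7.61 FPKM in mock. ELF4, on chromosome X from 130063955 to 130111858, had 10.01, 8.66 and 8.99 FPKM in the shHMGB2 libraries, against 8.87, 9.38 and 10.18 FPKM in the mock libraries. Its groups overlapped almost fully, and its log2 fold change of -0.04 (SE 0.080, adjusted p = 0.794 in limma) changed sign among the alternatives.

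ELF3 and EHF are the epithelial members, known for driving differentiation genes in squamous and glandular linings. ELF3, on chromosome 1 from 202010587 to 202017183, had 74.53, 65.40 and 61.35 FPKM in the shHMGB2 libraries, against 67.65, 51.90 and 56.53 FPKM in the mock libraries. These groups overlapped, at means of 67.1 ± 6.75 FPKM in shHMGB2 and 58.7 ± 8.09 FPKM in mock (SD, n = 3 each), and the log2 difference of 0.19 did not pass (SE 0.11, adjusted p = 0.292 in limma). ELF3 passed with library weights (adjusted p = 0.0185 in limma), and it shares 664 exonic bases with its antisense RNA ELF3-AS1, at 4.55 FPKM in shHMGB2 and 2.87 FPKM in mock. EHF, on chromosome 11 from 34621093 to 34663288, had 9.28, 9.72 and 9.06 FPKM in the shHMGB2 libraries, against 9.18, 10.37 and 11.19 FPKM in the mock libraries. Its groups overlapped as well, with means of 9.35 ± 0.336 FPKM in shHMGB2 and 10.2 ± 1.01 FPKM in mock (SD, n = 3 each) and a difference of -0.12 on the log2 scale (SE 0.081, adjusted p = 0.384 in limma).

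Counted without a test, 4 of the 9 tested members (ETV4, ETV5, ETS1 and ETS2) had all shHMGB2 libraries below all mock libraries, where 14% of all tested rows did. All shHMGB2 libraries were above all mock libraries for 2 (ETV6 and ELF1), where 21.6% of all tested rows were. In the authors' deposited table, 4 members (ETV4, ETV5, ETS1 and ETS2) had an adjusted p under 0.05 in the lower direction and 0 in the higher direction, of 9 with an adjusted p. Over the 13585 rows with one in that table, 9.23% were lower and 6.13% were higher. The authors' deposited table gives ETV5 a log2 fold change of -1.04 (adjusted p = 6.66e-06) and marks it as down, the single member it marks. For ETV4 the authors' deposited table has -0.83 (adjusted p = 1.70e-09), for ETS1 -0.49 (0.000299) and for ETS2 -0.19 (0.0461). ETS1 and ETS2 are thus called by the authors' deposited table and not by limma on FPKM, and the reason was not tested.

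**Figure D2:**
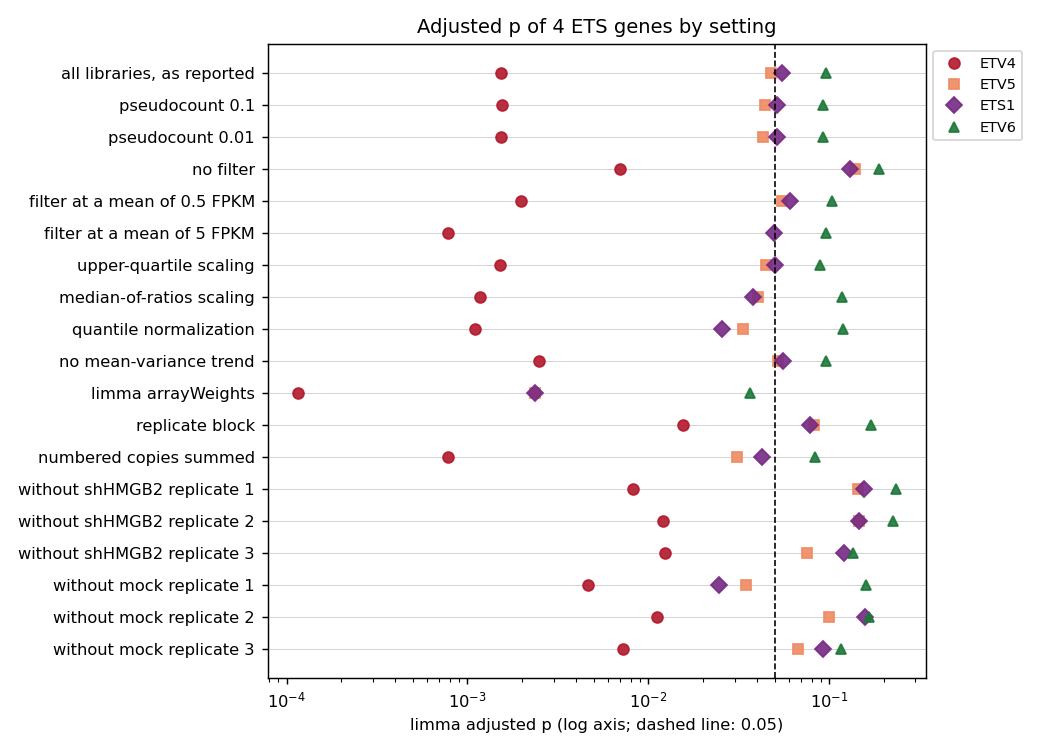
Adjusted p in limma (log axis, dashed line at 0.05) for ETV4, ETV5, ETS1 and ETV6, with a row for each processing setting and each library left out (ETV5 was not tested with the filter at 5 FPKM). ETV4 stayed left of the line throughout, at no more than 0.0155, while ETV5 and ETS1 lay on either side of it depending on the setting.

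In the shHMGB2 libraries the members ran, by mean FPKM, from ELF3 and ETS2 through ELF1, EHF, ELF4, ETV6, ETV4, ETS1 and ETV5 to ETV1. In the mock libraries the order was ETS2, ELF3, ELF1, ETV4, EHF, ELF4, ETS1, ETV6, ETV5 and ETV1. Neighbours whose libraries overlapped were ELF3 with ETS2, EHF with ELF4 and ETV6 with ETV4 in shHMGB2. In mock they were EHF with ELF4, ETS1 with ETV6 and ETV6 with ETV5. In the mock libraries every ETV4 value was above every EHF and ELF4 value, and in the shHMGB2 libraries every ETV4 value was below them.

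Over the 27 human ETS genes in the table, summed FPKM was 302 ± 5.58 in shHMGB2 and 305 ± 4.64 in mock (SD, n = 3 each), and the groups overlapped. The 3 PEA3 genes held 3.13%, 3.08% and 3.32% of it in the shHMGB2 libraries, against 5.21%, 6.16% and 5.26% in the mock libraries. That share did not overlap between the groups, unlike the family's total. Almost all of it was ETV4 and ETV5, whose groups did not overlap, so with a similar total the share had to separate. ETV4 ranked 13 among the 27 genes by mean share in shHMGB2 (2.19%) and 6 in mock (3.77%). ETV6 ranked 10 in shHMGB2 (2.48%) and 13 in mock (1.99%). ETS2 and ELF3 together held 43.7 ± 1.08% in shHMGB2 and 42.6 ± 3.34% in mock (SD, n = 3 each), with overlap. ELF3 had the largest mean share in shHMGB2 (22.2%) and ETS2 in mock (23.4%). These shares were described and not tested.

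Of the 17 other human ETS genes in the table, 9 passed the filter and 0 were called in limma, with a median log2 fold change of 0.03. At an unadjusted p under 0.05, 2 were higher (ETV7 and ELF2) and 1 was lower (ELK4). The nearest to the threshold was ETV7, a close relative of ETV6, at 6.74, 6.14 and 5.61 FPKM in the shHMGB2 libraries, against 5.24, 3.96 and 3.84 FPKM in the mock libraries. Its groups did not overlap (log2 fold change 0.43, SE 0.12, limma adjusted p = 0.0702), and it passed without mock replicate 1 (0.0231) and with library weights (0.00297). ELF2 averaged 7.20 ± 0.238 FPKM in shHMGB2 and 5.76 ± 0.945 FPKM in mock, and ELK4, a partner of serum response factor, 4.58 ± 0.104 FPKM in shHMGB2 and 5.79 ± 0.852 FPKM in mock (SD, n = 3 each). Neither passed in limma (adjusted p = 0.138 and 0.134), and the authors' deposited table calls ELK4 lower (log2 fold change -0.40, adjusted p = 0.00606). The repressor ERF averaged 31.6 FPKM in shHMGB2 and 34.5 FPKM in mock, and GABPA, a factor of housekeeping promoters, 11.2 FPKM in shHMGB2 and 9.72 FPKM in mock. ELK1 averaged 14.7 FPKM in shHMGB2 and 15.1 FPKM in mock, ELK3 7.46 FPKM in shHMGB2 and 7.31 FPKM in mock. ETV3 averaged 9.98 FPKM in shHMGB2 and 10.3 FPKM in mock, and ERG 1.97 FPKM in shHMGB2 and 1.75 FPKM in mock. These 6 had adjusted p between 0.251 and 0.878 in limma. The other 8, including FLI1, SPI1 and SPDEF, were below the filter.

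**Figure D3:**
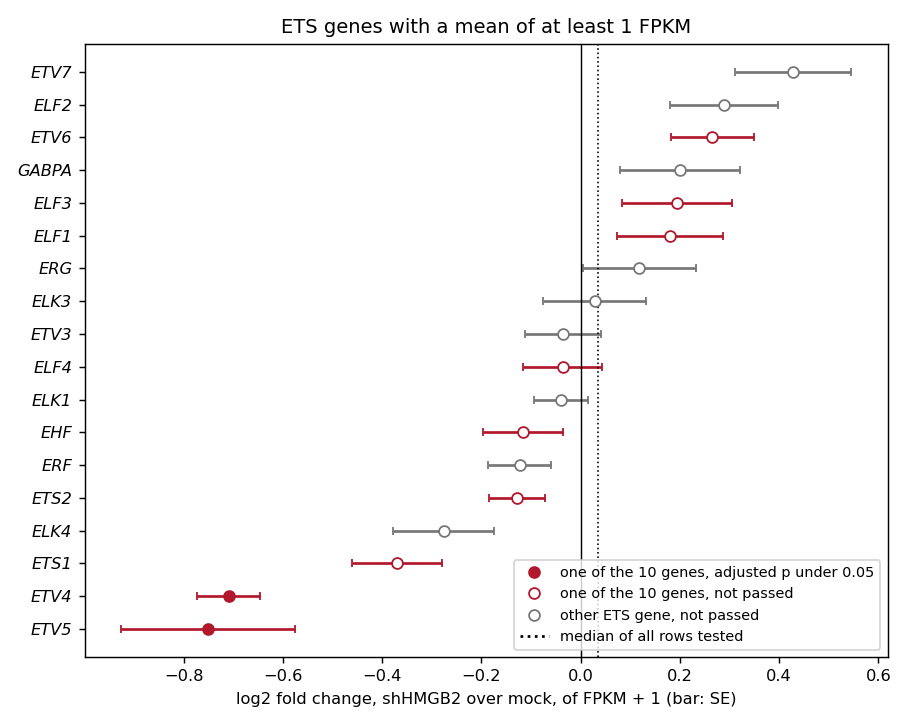
Log2 fold change of FPKM + 1, shHMGB2 over mock, with its SE, for each ETS gene above the filter, members and other ETS genes in separate colours. ETV5 and ETV4 lie farthest to the left at -0.75 and -0.71, and ETV7 farthest to the right at 0.43.

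Next to the members, 12 known regulators and partners of ETS proteins were read from the same fit, and 0 were called in limma, against 1 higher and 1 lower at an unadjusted p under 0.05. The smallest p was that of ATXN1L, which stabilises the repressor CIC, at 16.34, 14.89 and 15.12 FPKM in the shHMGB2 libraries, against 10.40, 13.16 and 13.09 FPKM in the mock libraries. Its groups did not overlap (log2 fold change 0.32, SE 0.097, limma adjusted p = 0.0886). CIC itself, which represses the PEA3 genes, had 4.85, 4.54 and 3.97 FPKM in the shHMGB2 libraries, against 5.26, 5.04 and 6.23 FPKM in the mock libraries. All shHMGB2 values of CIC lay below all its mock values, and CIC did not pass (log2 fold change -0.25, SE 0.10, limma adjusted p = 0.151). Whether CIC or ATXN1L has a part in the levels of ETV4 and ETV5 was not tested. The authors' deposited table calls ATXN1L higher (0.28, adjusted p = 0.0255) and CIC lower (-0.35, adjusted p = 0.0164). COP1, a ubiquitin ligase that targets PEA3 proteins, averaged 19.4 ± 0.796 FPKM in shHMGB2 and 18.7 ± 0.343 FPKM in mock (SD, n = 3 each, limma adjusted p = 0.59). Protein levels of CIC, COP1 and the ETS factors were not measured.

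Of 14 genes of the RAS and ERK cascade upstream of the PEA3 genes, 0 were called in limma, against 2 higher and 2 lower at an unadjusted p under 0.05, with a median log2 fold change of 0.15. EGFR, the receptor with the smallest p in that list, averaged 263 ± 16.9 FPKM in shHMGB2 and 205 ± 26.1 FPKM in mock (SD, n = 3 each), a log2 difference of 0.36 (SE 0.10, adjusted p = 0.0726 in limma). The authors' deposited table calls EGFR and BRAF higher and MAP2K1 and HRAS lower.

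ETV4 and ETV5 are often read beside other transcripts that follow ERK activity. Of 6 tested genes of that kind 5 were lower and 0 higher (6 and 0 at an unadjusted p under 0.05 in limma). Their median log2 fold change was -0.45. Lower calls by adjusted p made up 3.45% of all 13409 tested rows, of which 3745 passed the unadjusted cut in either direction. DUSP6, a phosphatase that acts on ERK, had 4.22, 4.70 and 5.42 FPKM in the shHMGB2 libraries, against 13.35, 13.08 and 15.49 FPKM in the mock libraries, and fell by 1.37 (SE 0.10, limma adjusted p = 0.000807). CCND1, which encodes cyclin D1, had 19.95, 20.52 and 21.15 FPKM in the shHMGB2 libraries, against 50.14, 52.09 and 57.50 FPKM in the mock libraries, and fell by 1.33 (SE 0.067, limma adjusted p = 0.000266). Both fell by more on the log2 scale than ETV4 and ETV5, a difference not tested, and passed in all 6 fits with a library left out. PHLDA1 averaged 107 ± 3.03 FPKM in shHMGB2 and 147 ± 12.6 FPKM in mock (SD, n = 3 each, fell by 0.45, limma adjusted p = 0.0146). The other 2 calls were EPHA2 and SPRY2, and DUSP4 did not pass (limma adjusted p = 0.0729). The number of lower genes was 2 of this list without shHMGB2 replicate 1, 2 or 3 or mock replicate 2.

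Among 11 tested protease and migration genes described as ETS or PEA3 targets, 4 were lower, 0 were higher and 7 did not pass. At an unadjusted p under 0.05 in limma, 7 were lower and 0 higher. Over all 13409 tested rows, 3.45% were lower by adjusted p, and 3745 passed the unadjusted cut in either direction. VEGFA averaged 45.7 ± 4.39 FPKM in shHMGB2 and 62.0 ± 6.26 FPKM in mock, and the interstitial collagenase MMP1 1.83 ± 0.233 FPKM in shHMGB2 and 2.79 ± 0.164 FPKM in mock (SD, n = 3 each). MMP10, a stromelysin, averaged 6.04 ± 0.394 FPKM in shHMGB2 and 8.42 ± 0.571 FPKM in mock (SD, n = 3 each). They fell by 0.43, 0.42 and 0.42 on the log2 scale (limma adjusted p = 0.0412, 0.041 and 0.0229), and MMP13 was the other lower gene. The median was -0.36. With all 6 libraries and no filter on low values, 0 of this list were lower (adjusted p in limma of 0.111 for VEGFA, 0.116 for MMP1, 0.0651 for MMP10 and 0.0957 for MMP13). Likewise 0 were lower without shHMGB2 replicate 1, 2 or 3 or mock replicate 2, and 2 without mock replicate 3.

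Of 11 tested epithelial genes described as ELF3 or EHF targets, 3 were lower, 1 was higher and 7 did not pass. Their median was -0.16, while ELF3 and EHF themselves did not pass. The shares of all 13409 tested rows were 3.45% lower and 3.3% higher. TGFBR2, a TGF-beta receptor, averaged 16.7 ± 0.794 FPKM in shHMGB2 and 11.8 ± 0.806 FPKM in mock (SD, n = 3 each, log2 fold change 0.47, limma adjusted p = 0.0122), and was lost without shHMGB2 replicate 1 or 2 (0.0584 and 0.0628). The cornified envelope genes SPRR1B and SPRR2A fell by 0.64 and 0.50 (limma adjusted p = 0.0132 and 0.029). SPRR1B averaged 147 ± 17.9 FPKM in shHMGB2 and 228 ± 15.7 FPKM in mock, and SPRR2A 16.7 ± 1.31 FPKM in shHMGB2 and 24.0 ± 2.87 FPKM in mock (SD, n = 3 each). SPRR1B was lost without mock replicate 2 (0.0512), and SPRR2A without mock replicate 2 (0.0863) or shHMGB2 replicate 1, 2 or 3 (0.083, 0.102 and 0.0751). With no filter on low values SPRR1B and SPRR2A also missed the threshold (adjusted p = 0.0528 and 0.0878 in limma), and 0 of this list were lower. OVOL1, the remaining lower gene, lost its call whichever library was left out (adjusted p between 0.0691 and 0.157 in limma). SPRR2A is among the SPRR2 genes, near-identical copies whose reads the authors' counting could split. The squamous markers KRT6A, KRT14 and SFN were lower in the same libraries.

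**Figure D4:**
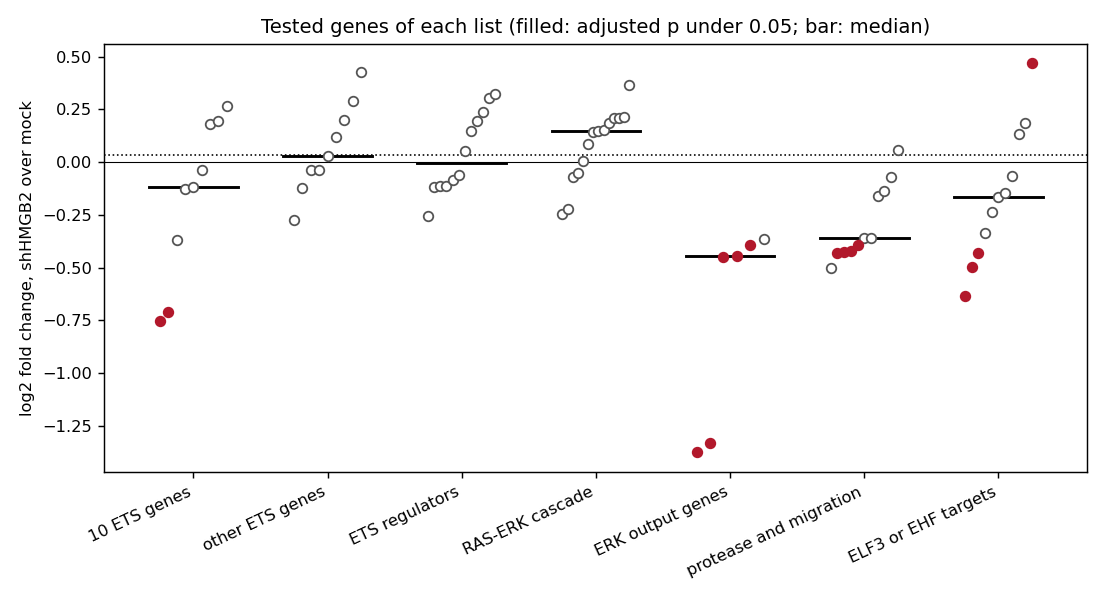
Log2 fold change, shHMGB2 over mock, of each tested gene by list, with filled points for an adjusted p under 0.05 in limma, a bar for each list's median and a dotted line at the median of all tested rows. The genes that follow ERK activity have the lowest median, at -0.45, and the members' median is -0.12. The lists were chosen with earlier results of these data known, so the order of their medians is a description.

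The genes whose log2(FPKM + 1) followed ETV4 most closely over the 6 libraries were FST, CSNK1E and USP22, with Pearson's r of 0.998, 0.997 and 0.997 among 8997 genes. FST, which encodes the activin binding protein follistatin, had 27.61, 26.63 and 26.65 FPKM in the shHMGB2 libraries, against 45.41, 44.57 and 44.96 FPKM in the mock libraries. For ETV5 they were IL1A, TSC22D1 and MAP2K1, with r of 0.998, 0.997 and 0.996. Mock replicate 2 was the highest mock library for ETV5, IL1A, TSC22D1 and MAP2K1. They were picked for their r over the same libraries, so this adds nothing separate. IL1A, TSC22D1 and MAP2K1 did not pass in limma (adjusted p = 0.0729, 0.107 and 0.103). The 6 points share 2 groups and their libraries, so the values describe likeness in these libraries alone.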

How the data were processed

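RNA of KYSE450 cells was extracted with Trizol and sequenced as 6 mRNA libraries, per the labels' protocols. Per the submitters' processing notes, Bowtie2 2.2.5, RSEM 1.2.12 and hg38 appear with unstated roles. The authors deposited 1 table. Per the file headers, its levels per library are FPKM, rounded to 2 decimals. The authors' group values behave as a normalized signal, with a deposited log2 fold change, p-value and adjusted p-value from a test that no source used here names.

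From the FPKM, log2(FPKM + 1) of the 13409 rows with a mean of at least 1 FPKM was fitted with limma 3.58.1 (R 4.3.3, trended empirical Bayes, 2-sided, Benjamini-Hochberg, threshold 0.05). All 6 libraries entered with group as the single term. Counts per library were not analysed here, and relative depth came from genes seen in 1 library. Alternatives covered the pseudocount, filter, scaling, trend, library weights, numbered copies, threshold, replicate block and each library left out. On simulated data the fit called 100 of 100 genes changed by 1 on the log2 scale and 70 of 100 changed by 0.5. It also called 22 of 12978 unchanged genes, so calls near the threshold can be false and small changes can be missed. Gene positions and promoters are RefSeq GRCh38.p14, and exon overlaps GENCODE. None of the 10 members has any of the table's 2138 numbered copies.

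The members and lists were chosen with earlier results of these data known. Named are all members, other ETS genes above the filter, the 3 largest called changes of each list or else its smallest p, and the 3 genes of at least 5 FPKM most like each called member. Others, such as CIC, COP1, EPHA2, SPRY2, DUSP4, MMP13, OVOL1, MAP2K1, HRAS, BRAF and single squamous markers, were named after their values were seen.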

Additional observations from a re-analysis of the deposited data

How the results depend on the processing

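The lower call of ETV4 and the lower level of HMGB2 kept their direction and side of the threshold in all 20 alternatives, and no value reversed a call. The members' lower count was 1 in place of 2 with no filter, a filter at 0.5 FPKM, no mean-variance trend, the replicate block or a threshold of 0.01, ETV5 being the call lost each time. It ranged from 1 to 3 with a library left out, and 3 came with ETS1 added. The higher count was 2 in place of 0 with library weights (ETV6 and ELF3) and 1 at a threshold of 0.1 (ETV6). The cause was not tested. The PEA3 share of ETS levels differed, shHMGB2 minus mock, by -2.36 percentage points, by -3.42 among the 10 members alone, and by -2.53 to -2.05 with a library left out.

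Over all rows, 442 were higher and 463 lower. These were 167 and 245 with no filter, 2436 and 1758 with library weights, 138 and 234 with the replicate block, 78 and 164 at a threshold of 0.01, and 1156 and 878 at 0.1. With a library left out they ranged from 97 to 449 higher and from 193 to 446 lower, with fewer samples in each fit. Same-numbered libraries did not visibly deviate together (r of -0.0116, -0.0377 and -0.0959). The labels state no pairing, and these r values cannot exclude a weak one. With the replicate block ETV5 had an adjusted p of 0.0821 in limma. With the block the lower counts were 3 in place of 5 for genes that follow ERK activity, 1 in place of 4 for protease and migration genes, and 1 in place of 3 for ELF3 or EHF targets. Without counts, low genes such as ETV1 cannot be given a counting error.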
